A study of Mus musculus with 4 samples.

Results

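The iron and 2-oxoglutarate dependent dioxygenases described here are 52 mouse genes chosen by name: the TET enzymes, the Jumonji C (JmjC) enzymes, the ALKBH family with Fto, the collagen and lysyl hydroxylases, and a set of small-molecule and protein hydroxylases. The hydroxylases that act on hypoxia-inducible factor (HIF) are not among them. All 52 were found by Ensembl identifier among the 55487 genes of the deposited table. Polyadenylated RNA of liver tumour tissue (hepatocellular carcinoma, HCC) from 4 mice was sequenced in bulk. Every mouse carried Cre under the albumin promoter (Alb-cre), which acts in hepatocytes, and H11-myc, a Myc transgene placed in the H11 locus, as a tumour driver. In 2 mice Tfrc, the gene of transferrin receptor 1, was conditionally knocked out in the liver, and the other 2 were wild type for Tfrc. The labels give no age or sex and name no treatment. Bulk tissue also holds stromal, endothelial and immune cells in which Alb-cre is not active, and fewer cells of a type cannot be told apart from less RNA per cell.

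These enzymes bind ferrous iron at their active site and use oxygen and 2-oxoglutarate, a Krebs cycle intermediate, to oxidise a substrate while releasing succinate and carbon dioxide. Ascorbate keeps the iron reduced, and succinate, fumarate and 2-hydroxyglutarate compete with 2-oxoglutarate. Depending on the enzyme, the oxidised substrate is a methyl group on DNA, RNA or histone lysine, a proline or lysine of collagen, or a small metabolite such as phytanoyl-CoA. Transcript levels, which are what was measured here, do not report on enzyme activity or on the iron loading of the protein.

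Total counts lay between 15918349 and 17052943 per library. Tfrc itself had 8441 and 3603 counts in the wild type libraries and 5407 and 3244 in those labelled knockout. The groups overlapped, with a log2 fold change of -0.37 (SE 0.45, edgeR adjusted p = 0.833), so the level of Tfrc did not check the labels, and knockout here means a library so labelled. Whole-gene counts from bulk tissue include exons outside a deleted part and cells without Cre. Hepatocyte markers were present in every library, the 8 of the list summing to between 13240 and 44770 CPM (counts scaled to library size). Wild type replicate 2 stood apart on the first principal component (48.2% of variance; 86.6, the other 3 libraries between -38.5 and -11.2). Wild type replicate 1 stood apart on the second (32.6% of variance; -66.7, the others between 3.11 and 49.1) and was lowest for all 8 hepatocyte markers, so a value without wild type replicate 2 rests on that library alone as wild type. A value without wild type replicate 1 likewise rests on wild type replicate 2 alone as wild type. Mitochondrial genes took 4.13% of the counts in wild type replicate 2 and between 8.69% and 16.6% in the other 3 libraries. All 4 libraries held Y-linked Ddx3y (271 to 942 counts) and 2 or 3 counts of Xist, so the X-linked members Kdm5c, Kdm6a and Phf8 were compared among libraries of the same sex pattern.

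None of the dioxygenase genes reached the adjusted threshold in the comparison of knockout with wild type. Of the 52 genes, 50 had enough counts to be tested, and 0 passed by edgeR's quasi-likelihood test with Benjamini-Hochberg adjustment over 16310 genes (0% of all tested genes passed, while DESeq2 called 0.907% of all tested genes and 0 of the 50). At an unadjusted p under 0.05 there were 3 of the 50, namely Kdm6b and Alkbh8 on the higher side and P4ha1 on the lower side. The background was 8.3% of all tested genes, 3.95% higher and 4.35% lower. The groups did not overlap for 21 of the 50, or 42%, which is also the share over all tested genes (42%). Of these, 15 were higher and 6 lower in knockout, where the background was 21.9% higher and 20.1% lower. A positive log2 fold change was seen for 31 of the 50, against 50.4% of all tested genes, with a median of 0.24 against 0.01. Without wild type replicate 2, 29 of the 50 were positive and the median was 0.08. Taken in either direction, the members were separated no more often than the background. Their share was above the background on the higher side and below it on the lower side.

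**Figure D1:**
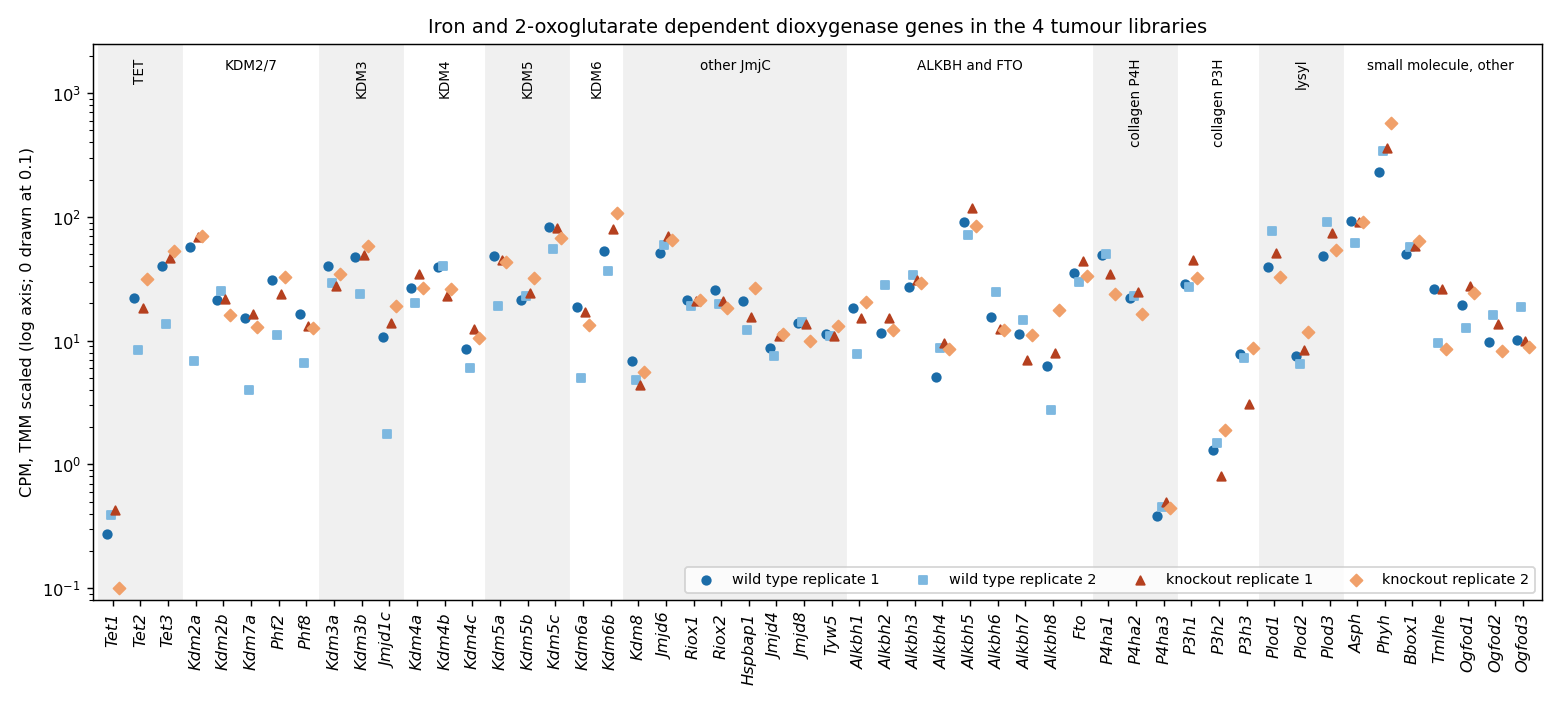
CPM (counts scaled for library size by TMM factors, log axis) of the 52 genes in each of the 4 libraries, ordered by enzyme family; each point is 1 library and Tet1 at 0 is drawn at 0.1. Wild type replicate 2 lies lowest for 14 of the 18 tested TET and KDM genes, while Phyh lies above all other members in every library.

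Among the TET enzymes, which oxidise 5-methylcytosine in DNA as a step towards its removal, Tet3 was the most abundant per length. Tet3 had 39.8 and 13.6 CPM in wild type replicates 1 and 2 and 46.8 and 52.7 CPM in knockout replicates 1 and 2. Both knockout libraries lay above both wild type libraries, but wild type replicate 1 was much closer to them than to its own replicate. This gave a log2 fold change of 0.90 (SE 0.50; 95% interval -0.29 to 2.08, edgeR adjusted p = 0.652), and it was 0.32 without wild type replicate 2 and 1.83 (adjusted p = 0.0341) without wild type replicate 1. Tet2 followed the same order within the wild type, with 22 and 8.45 CPM, and had 18.4 and 31.3 CPM in knockout, so its groups overlapped (log2 fold change 0.70 with SE 0.53, and 0.17 without wild type replicate 2 or 0.27 without knockout replicate 2). Tet1, the member typical of embryonic stem cells, had 5, 6, 7 and 0 counts in wild type replicates 1 and 2 and knockout replicates 1 and 2 and was too low to test. A count of 0 in knockout replicate 2 allows up to 0.183 CPM by a floor of 3 counts. This floor is scaled by the total count alone, without the TMM factor, and covers counting error only.

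The KDM2 and KDM7 families pair a JmjC domain with a zinc finger of the CXXC type or a PHD finger and act mainly on dimethylated histone H3 lysines. Kdm2a, which binds unmethylated CpG islands, gave the widest gap between wild type libraries of any member, with 56.9 CPM in replicate 1 and 6.82 CPM in replicate 2. The knockout libraries had 68.7 and 70.0 CPM, close to wild type replicate 1. In counts this was 1045, 105, 1114 and 1109. The log2 fold change of 1.12 (SE 0.81, edgeR adjusted p = 0.712) was 0.28 without wild type replicate 2 and stood at 3.31 without wild type replicate 1. Kdm2b, its paralog in a variant Polycomb complex, did not share the gap, with 21.3 and 25.1 CPM in wild type and 21.7 and 16.2 CPM in the knockout libraries (log2 fold change -0.29, SE 0.34). Phf2, the most abundant of these families per length, had 30.9 and 11.1 CPM in wild type and 24.1 and 32.7 CPM in knockout. Kdm7a had 15.4 and 3.96 against 16.4 and 12.9 CPM, and the X-linked Phf8 had 16.4 and 6.63 against 13.1 and 12.6 CPM. For Phf2, Kdm7a and Phf8 the knockout libraries lay near wild type replicate 1, and the sign of the log2 fold change turned from positive to negative without wild type replicate 2 (-0.13, -0.07 and -0.35).

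The KDM3 family removes methyl groups from lysine 9 of histone H3. Jmjd1c had 198 and 27 counts in the wild type libraries and 224 and 305 in knockout, or 10.8, 1.75, 13.8 and 19.2 CPM in the same order. Its groups did not overlap, with a log2 fold change of 1.39 (SE 0.76, edgeR adjusted p = 0.642), which was 0.61 without wild type replicate 2 and 3.19 (adjusted p = 0.0246) without wild type replicate 1. Kdm3b had 47.2 and 23.7 CPM in wild type and 49.2 and 58.2 CPM in the knockout libraries (log2 fold change 0.60 with SE 0.39, and 0.18 without wild type replicate 2). Kdm3a, known as a hypoxia-induced member of the family, had 40.5 and 29.2 CPM in wild type and 27.6 and 34.8 CPM in knockout, with overlapping groups (log2 fold change -0.16, SE 0.33).

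Kdm4b was the demethylase whose wild type libraries agreed most closely. KDM4 enzymes act on trimethylated lysines 9 and 36 of histone H3. Kdm4b had 39.6 and 40.0 CPM in wild type and 23.0 and 26.2 CPM in knockout, so both knockout libraries were lower. This gave a log2 fold change of -0.70 (SE 0.30; 95% interval -1.40 to 0.01, edgeR adjusted p = 0.606), and it lay between -0.79 and -0.64 whichever library was left out. Kdm4a and Kdm4c went the other way, Kdm4a with 26.6 and 20.3 against 34.9 and 26.4 CPM (log2 fold change 0.38, SE 0.34) and Kdm4c with 8.61 and 6.04 against 12.4 and 10.5 CPM (0.64, SE 0.40). The groups overlapped for Kdm4a and did not overlap for Kdm4c. No member of the family passed after adjustment.

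The KDM5 enzymes remove methyl groups from lysine 4 of histone H3, a mark of active promoters. Kdm5c, the most abundant of the 3 per length, had 82.7 and 54.7 CPM in wild type and 81.5 and 68.1 CPM in the knockout libraries (log2 fold change 0.12, SE 0.33, edgeR adjusted p = 0.93). Kdm5b had 21.3 and 23.1 against 24.1 and 31.9 CPM, with groups that did not overlap by a small margin (log2 fold change 0.33, SE 0.33, adjusted p = 0.784). Kdm5a had 48.3 and 19.2 against 45.2 and 43.0 CPM, so only wild type replicate 2 was set apart. For Kdm5a and Kdm5c the sign turned negative without wild type replicate 2 (-0.13 and -0.15).

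Kdm6b had the smallest p of all members. Kdm6b (chr11:69398508-69413675, minus strand, mm10, protein coding) encodes JMJD3, which removes the Polycomb mark from histone H3 and is known as an inducible gene in activated macrophages and stressed cells. Its levels were 53.0 and 36.7 CPM in wild type replicates 1 and 2 and 79.8 and 107 CPM in knockout replicates 1 and 2, or 44.9 ± 11.5 against 93.3 ± 19.2 CPM (SD, n = 2 each). Both knockout libraries were higher than both wild type libraries, and the fitted ratio was 2.08-fold. This gave a log2 fold change of 1.06 (SE 0.33; 95% interval 0.26 to 1.85, unadjusted p = 0.0162, edgeR adjusted p = 0.547), and it lay between 0.82 and 1.31 when each library was left out in turn. Without knockout replicate 2, 0 members were higher at an unadjusted p under 0.05, where 3.07% of all genes passed in either direction. The 7 macrophage and Kupffer markers summed to 564 and 911 CPM in wild type and 316 and 211 CPM in knockout, with 0 of 7 positive, so these markers were lower where Kdm6b was higher. Clec4f, a defining Kupffer cell marker, had 0 counts in wild type replicate 1 and 917, 13 and 143 counts in the other libraries. Their part in the level of Kdm6b was not tested. Kdm6a, the X-linked paralog UTX, had 18.8 and 5 CPM in wild type and 17.1 and 13.4 CPM in knockout and overlapped (log2 fold change 0.35 with SE 0.61, and -0.30 without wild type replicate 2). An antisense gene, Kdm6bos, shares 4.11% of the exonic bases of Kdm6b but had at most 16 counts in a library.

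**Figure D2:**
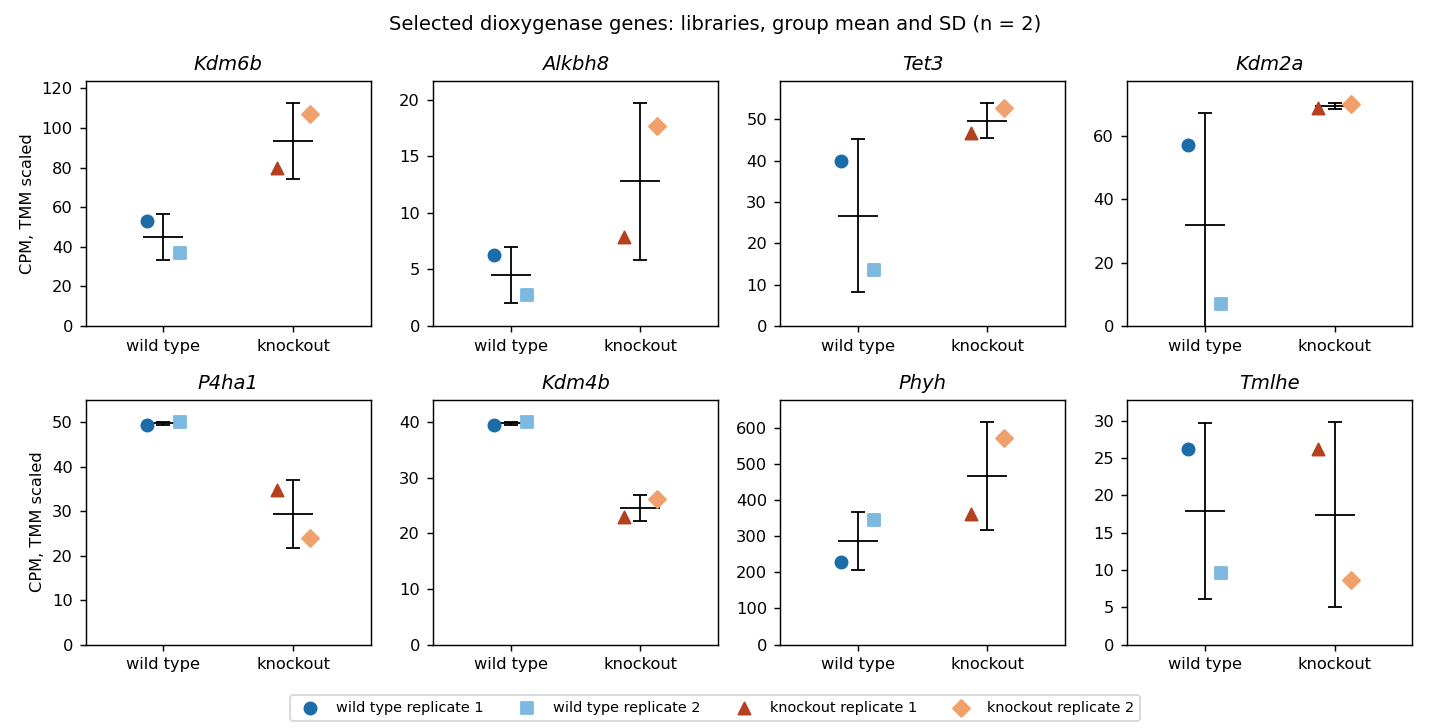
CPM (scaled by TMM) of 8 selected genes, with each library as a point and the group mean and SD as bars (n = 2 per group); each panel starts at 0, and the lower bar of Kdm2a is clipped there. Kdm6b and Alkbh8 are higher and P4ha1 and Kdm4b lower in both knockout libraries, Tet3 and Kdm2a are set apart mainly by wild type replicate 2, and Tmlhe is high in replicate 1 and low in replicate 2 of each group.

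The TET and KDM genes as a group were low in wild type replicate 2. It was the lowest library for 14 of the 18 tested (77.8%), against 34.4% of the other 32 members and 34.7% of all tested genes. On the log2 scale the median TET or KDM gene lay 1.09 below the mean of the other 3 libraries there (median deviation -1.09, with 0.1 added to the CPM), and the median of all tested genes lay at -0.01. Kdm2a was at -3.23, lower than all but 0.589% of tested genes, Jmjd1c at -2.95, Kdm7a at -1.88, Tet3 at -1.76 and Kdm6a at -1.68. Kdm6b, the member with the smallest p, was at -1.06, and its longest annotated transcript has 6654 bases. Kdm2b and Kdm4b were above the other libraries, at 0.36 and 0.48. With all libraries 15 of the 18 had a positive log2 fold change (median 0.41). Without wild type replicate 2 there were 9 positive and 9 negative (median 0.05), and without wild type replicate 1 there were 16 positive (median 1.15). The other 32 members had 16 positive and 16 negative with all libraries. They include Kdm8, placed here with the other JmjC genes, which was lowest in knockout replicate 1 (4.38 CPM).

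Levels in wild type replicate 2 were lower the longer the transcript. The longest annotated transcript had a median of 6406 bases for the TET and KDM genes, 3188 for the other members with a transcript and 2974 for all tested genes. Over all tested genes the median deviation of wild type replicate 2 was 0.31 for 4955 genes under 2000 bases, 0.03 from 2000 to 4000, -0.27 from 4000 to 6000, -0.55 from 6000 to 10000 and -0.69 for 326 genes of 10000 bases or more. The 11 members from 6000 to 10000 bases had a median of -1.11, and the 9 members under 2000 bases one of 0.63. Across genes, Spearman's rho between length and this deviation was -0.78 over 49 members and -0.33 over 16289 genes, where the points share the same 4 libraries and genes are not independent. In wild type replicate 1 and knockout replicates 1 and 2 rho was 0.44, 0.51 and 0.51 over the members and 0.16, 0.16 and 0.15 over all tested genes; each deviation is taken from the mean of the other 3 libraries, so wild type replicate 2 enters these values too. GC content was related as well, with a rho of 0.50 over the members and 0.32 over all tested genes in wild type replicate 2. The part of length, GC content or RNA quality in the differences between groups was not tested.

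**Figure D3:**
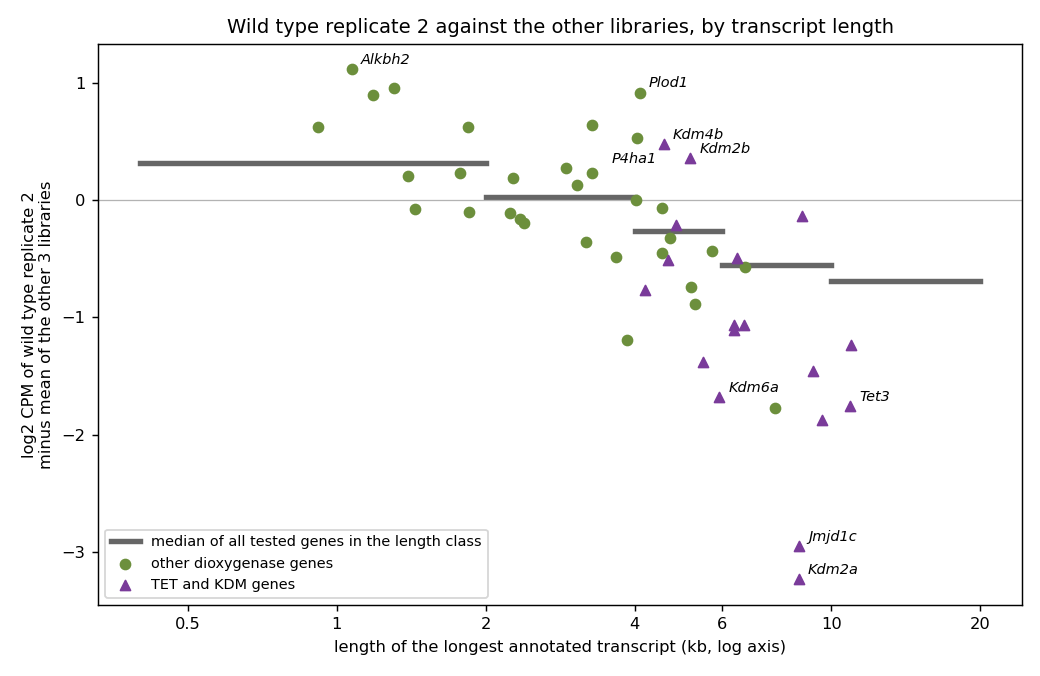
Log2 CPM of wild type replicate 2 minus the mean of the other 3 libraries (vertical axis) against the length of the longest annotated transcript (horizontal, log axis) for the 49 tested members with an annotated transcript; grey bars give the median of all tested genes in each length class. Points of longer transcripts tend to lie lower, and the longer TET and KDM genes lie mostly below the grey bars. The highest point is Alkbh2 at 1.11 and the lowest is Kdm2a at -3.23.

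The remaining JmjC proteins are mostly protein or RNA hydroxylases, and their log2 fold changes lay between -0.25 and 0.45. Riox1, a ribosomal oxygenase of the nucleolus and the most abundant of these per length, had 21.2 and 18.9 CPM in wild type and 21 and 21.4 CPM in the knockout libraries (log2 fold change 0.08, SE 0.32, 95% interval -0.68 to 0.85). Riox2, which hydroxylates a protein of the large ribosomal subunit, had 25.5 and 19.8 against 21.1 and 18.3 CPM. Jmjd4, which hydroxylates a translation termination factor, had 8.77 and 7.47 against 10.9 and 11.3 CPM, and its groups did not overlap (log2 fold change 0.45, SE 0.37, edgeR adjusted p = 0.745). Jmjd6, a lysyl hydroxylase of splicing factors, had 51.3 and 59.0 against 70.6 and 65.4 CPM, also without overlap (log2 fold change 0.30, SE 0.28). Jmjd8 had 13.9 and 14.0 against 13.6 and 9.90 CPM, and its count is uncertain because 39.3% of its exonic bases are shared with Stub1 on the opposite strand. Kdm8, Hspbap1 and Tyw5, the last a hydroxylase of a modified base in phenylalanine tRNA, overlapped between groups, with log2 fold changes of -0.23, 0.36 and 0.11. The count of Tyw5 is uncertain too, as 25.6% of its exonic bases are shared with Maip1 on the opposite strand. Of the 8 genes, 5 were positive and 3 negative, and 0 had an unadjusted p under 0.05, against 8.3% of all tested genes.

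In the ALKBH family, which removes alkyl and methyl groups from nucleic acids, Alkbh8 (chr9:3335140-3391154, plus strand, protein coding) had the largest log2 fold change of all members. ALKBH8 joins a dioxygenase domain to a methyltransferase that modifies the wobble uridine of tRNA. Alkbh8 had 115 and 42 counts in the wild type libraries and 128 and 280 in knockout, or 6.26, 2.73, 7.89 and 17.7 CPM. Both knockout libraries were higher, but knockout replicate 1 was nearer to wild type replicate 1 than to knockout replicate 2. This gave a log2 fold change of 1.50 (SE 0.59; 95% interval 0.11 to 2.90, unadjusted p = 0.0383, edgeR adjusted p = 0.591), and it ranged from 0.81 without knockout replicate 2 to 2.19 without wild type replicate 1. Its longest transcript, of 7674 bases, is the longest of the family, and its deviation in wild type replicate 2 was -1.77.

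The RNA demethylases of N6-methyladenosine overlapped between groups. Alkbh5, with the highest mean FPKM of the family, though below Alkbh2 in wild type replicate 2 (10.6 against 13.2 FPKM), had 90.5 and 71.5 CPM in wild type and 119 and 83.8 CPM in the knockout libraries (log2 fold change 0.32, SE 0.32, edgeR adjusted p = 0.791), and its log2 fold change was 0.019 without knockout replicate 1. Fto had 35.6 and 29.9 against 44.4 and 33.4 CPM (log2 fold change 0.25, SE 0.32; 0.0006 without knockout replicate 1). Alkbh6, Alkbh7 and Alkbh2, which have short transcripts, were highest in wild type replicate 2. Alkbh6 had 15.6 and 25 CPM in wild type and 12.4 and 12.3 CPM in knockout without overlap (log2 fold change -0.71, SE 0.38, adjusted p = 0.639; -0.33 without wild type replicate 2). Alkbh7, a mitochondrial member, had 11.3 and 14.8 against 6.97 and 11.1 CPM (log2 fold change -0.53, SE 0.41), its groups separated by a narrow margin. Alkbh2, which repairs alkylated DNA, had 11.5 and 28 against 15.2 and 12.3 CPM, so wild type replicate 2 alone was high, and the sign turned to 0.26 without it. Its count is uncertain, as 29.5% of its exonic bases are shared with Usp30 on the opposite strand. Alkbh3, the other DNA repair member, had between 27.4 and 33.7 CPM in all 4 libraries (log2 fold change -0.02, SE 0.31). Alkbh1, which acts on tRNA, and Alkbh4 overlapped, with log2 fold changes of 0.43 and 0.39, and that of Alkbh4 ran from 0.011 without wild type replicate 1 to 0.84 when wild type replicate 2 was left out.

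P4ha1 had the smallest p of the collagen hydroxylases and was lower in knockout. The gene (chr10:59323296-59373304, plus strand, protein coding) encodes a catalytic subunit of prolyl 4-hydroxylase, which gives collagen the hydroxyproline that holds its triple helix together, and both P4ha1 and its paralog P4ha2 are known targets of HIF. Their RefSeq promoters (GRCm38.p6, 250 bases before to 50 after the start) are shown with that of Alkbh8, for a contrast in the site searched, since HIF is itself controlled by iron-dependent hydroxylases. Capitals mark the core of the HIF site, ACGTG or GCGTG on either strand. P4ha1 is at chr10:59323046-59323345, P4ha2 at chr11:54100674-54100973 and Alkbh8 at chr9:3334981-3335280, all on the plus strand and printed 5′ to 3′.
P4ha1: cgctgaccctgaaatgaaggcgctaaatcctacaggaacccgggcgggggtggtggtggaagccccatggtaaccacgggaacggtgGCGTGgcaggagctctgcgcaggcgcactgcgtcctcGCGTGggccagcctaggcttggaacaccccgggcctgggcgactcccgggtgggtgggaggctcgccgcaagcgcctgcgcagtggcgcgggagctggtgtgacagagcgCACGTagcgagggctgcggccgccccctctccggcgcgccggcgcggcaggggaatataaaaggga
P4ha2: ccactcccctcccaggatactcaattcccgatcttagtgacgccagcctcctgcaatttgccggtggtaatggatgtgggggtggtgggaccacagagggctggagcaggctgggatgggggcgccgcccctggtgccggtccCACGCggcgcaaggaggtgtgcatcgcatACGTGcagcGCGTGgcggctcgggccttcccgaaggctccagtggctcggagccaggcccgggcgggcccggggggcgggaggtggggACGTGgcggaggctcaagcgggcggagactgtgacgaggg
Alkbh8: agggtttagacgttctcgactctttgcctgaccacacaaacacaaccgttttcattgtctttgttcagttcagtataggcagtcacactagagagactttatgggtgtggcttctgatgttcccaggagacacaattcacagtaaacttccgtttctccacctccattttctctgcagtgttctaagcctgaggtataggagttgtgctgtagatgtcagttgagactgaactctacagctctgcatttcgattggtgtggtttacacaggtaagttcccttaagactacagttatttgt
The P4ha1 promoter held 3 matches, that of P4ha2 4 and that of Alkbh8 0. Promoters with 0 matches occurred in members of either direction, such as Tet3 and Phyh (positive log2 fold change) and P3h3 and Ogfod2 (negative). A match was found in 43.8% of 32851 RefSeq promoters of the same length and in 30 of 52 promoters (57.7%) of the 42 members that had one. The Myc-binding E-box CACGTG, which overlaps ACGTG, was in 7.15% of all promoters and 4 of the 52. A match describes letters in this window and is not a measured binding site.

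P4ha1 had 49.45 and 49.97 CPM in wild type replicates 1 and 2 and 34.7 and 23.9 CPM in knockout replicates 1 and 2, or 49.7 ± 0.364 against 29.3 ± 7.65 CPM (SD, n = 2 each). Both knockout libraries were lower, and the wild type libraries were nearly equal. This gave a log2 fold change of -0.76 (SE 0.32; 95% interval -1.52 to -0.003, unadjusted p = 0.0493, edgeR adjusted p = 0.6), or 1.70-fold lower. It ranged from -1.09 without knockout replicate 1 to -0.52 without knockout replicate 2, and without either of these libraries 0 members were lower at an unadjusted p under 0.05, where 4.49% and 3.07% of all genes passed in either direction. P4ha2, with 22.1 and 22.8 against 24.8 and 16.5 CPM, overlapped (log2 fold change -0.12, SE 0.35). P4ha3 had 7 or 8 counts in every library and was too low to test.

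The prolyl 3-hydroxylases and lysyl hydroxylases were split in direction. P3h1, which modifies a single proline of fibrillar collagens in a complex with Crtap, had 28.6 and 27.0 CPM in wild type and 45 and 31.9 CPM in knockout, without overlap (log2 fold change 0.47, SE 0.32, edgeR adjusted p = 0.694; 0.17 without knockout replicate 1). P3h3 had 7.84 and 7.21 against 3.08 and 8.70 CPM, so the knockout libraries lay on both sides of the wild type. P3h2, known for basement membrane collagen, had 13 to 30 counts in the 4 libraries. Plod2, the lysyl hydroxylase of collagen telopeptides, had 7.52 and 6.43 against 8.39 and 11.7 CPM without overlap (log2 fold change 0.52, SE 0.40, adjusted p = 0.722). Plod1 and Plod3 were highest in wild type replicate 2. Plod1 had 39.6 and 76.5 against 51.1 and 32.7 CPM, and Plod3, which also transfers sugar to hydroxylysine, had 48.6 and 90.3 against 74.2 and 53.8 CPM. Their log2 fold changes of -0.47 and -0.12 turned to 0.08 and 0.40 without that library. Of the 8 tested collagen and lysyl hydroxylases 2 were positive and 6 negative (median -0.12), and 5 were positive without wild type replicate 2.

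Most collagen chains and folding partners of these enzymes had negative log2 fold changes. All 13 listed collagen chains had a negative log2 fold change (median -0.65), 5 had an unadjusted p under 0.05 and 0 passed after adjustment by edgeR. Over all tested genes 50.4% were positive and 8.3% had an unadjusted p under 0.05. Col4a2, a basement membrane chain, had 244 and 272 CPM in wild type and 119 and 115 CPM in the knockout libraries (log2 fold change -1.14, SE 0.30). Col6a2 had a log2 fold change of -1.09 and Col5a2 one of -0.88. Of 8 tested partners, 6 were negative and 2 had an unadjusted p under 0.05. Fkbp10, a prolyl isomerase that assists lysyl hydroxylation, had 13.1 and 17.3 against 5.74 and 6.12 CPM (log2 fold change -1.36, SE 0.38, adjusted p = 0.545). P3h4, a non-catalytic relative in the lysyl hydroxylase complex, had a log2 fold change of -1.24 and Crtap, the partner of P3h1, one of -0.66. The 9 stellate cell and fibroblast markers, of which 3 are themselves collagen chains, summed to 1413 and 1232 CPM in wild type and 640 and 1177 CPM in knockout, with 7 of 9 negative. The 6 endothelial markers summed to 133 and 145 CPM in wild type and 95.9 and 75.6 CPM in knockout, with 5 of 6 negative. The part of either cell type in the levels of P4ha1 and the collagen chains was not tested.

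Phyh, of lipid metabolism, was the most abundant member. This peroxisomal hydroxylase, which starts alpha-oxidation of phytanic acid, had the highest level per length of all 52 genes, with 116 and 140 FPKM in wild type and 166 and 250 FPKM in knockout. In CPM this was 229 and 343 against 361 and 572. The groups did not overlap, with knockout replicate 1 just above wild type replicate 2 (log2 fold change 0.71, SE 0.41, 95% interval -0.26 to 1.67, edgeR adjusted p = 0.661; 0.40 without wild type replicate 1 or 0.34 without knockout replicate 2). Bbox1, which makes carnitine from gamma-butyrobetaine, had 49.8 and 57.4 against 58.3 and 64.5 CPM, with groups separated by less than 1 CPM (log2 fold change 0.20, SE 0.29). Tmlhe, the mitochondrial enzyme of the first step of carnitine synthesis, lies on an unplaced scaffold (GL456233.1) and gave 482 and 147 counts in the wild type libraries and 425 and 137 in knockout. Replicate 1 was thus high and replicate 2 low in each group, and the group means were close (17.9 ± 11.8 against 17.4 ± 12.4 CPM, SD, n = 2 each). Its log2 fold change of -0.04 (SE 0.66) had a 95% interval from -1.59 to 1.51, which covers a 2-fold difference in either direction.

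Asph hydroxylates aspartate and asparagine in EGF-like domains and is known for high levels in liver cancer. It had 92.5 and 61.7 CPM in wild type and 91.1 and 90.8 CPM in knockout, and wild type replicate 2 was set apart (log2 fold change 0.24 with SE 0.32, and -0.02 without that library). Ogfod1, a prolyl hydroxylase of a protein of the small ribosomal subunit, had 19.6 and 12.7 against 27.5 and 24.2 CPM without overlap (log2 fold change 0.68, SE 0.36, edgeR adjusted p = 0.639), and stayed positive, between 0.40 and 0.99, when each library was left out. Ogfod3 had 10.1 and 18.7 against 9.99 and 8.83 CPM without overlap (log2 fold change -0.61 with SE 0.43, and -0.11 without wild type replicate 2), and Ogfod2 overlapped with -0.23.

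**Figure D4:**
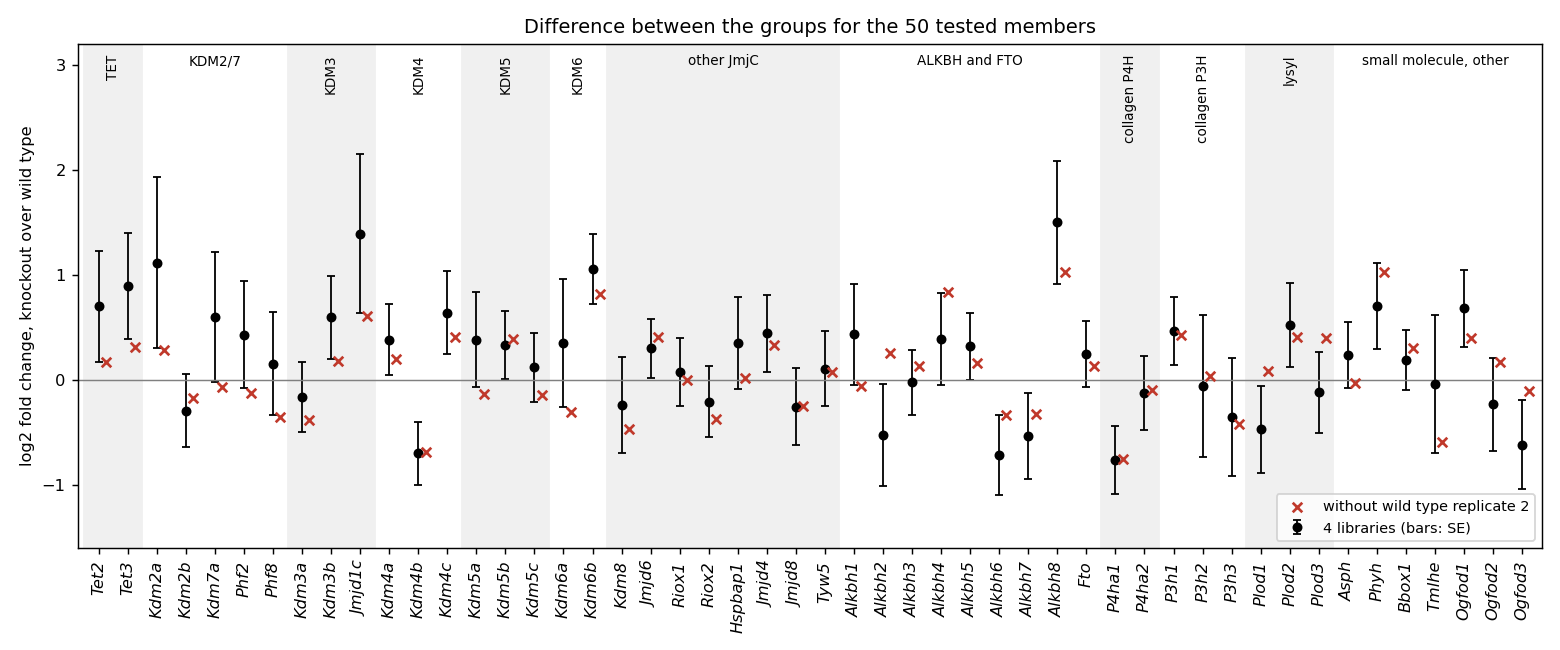
Log2 fold change of knockout over wild type (vertical axis) for the 50 tested members by family, with black points and bars for the edgeR estimate and its SE over 4 libraries and red crosses for the estimate without wild type replicate 2. The crosses of Kdm2a, Jmjd1c, Tet2 and Tet3 fall towards 0, while those of Kdm4b and P4ha1 stay close to the black points.

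Per length, in the deposited FPKM, the members spanned a wide range. Averaged over the 4 libraries Phyh stood at 168 FPKM, above every other member in each library. Means of 15 FPKM for Alkbh5 and 12 for Bbox1 followed. Kdm6b at 9.52, Plod3 at 9.34, Ogfod3 at 8.97, Riox1 at 8.83, Alkbh2 at 8.55 and Tmlhe at 8.11 FPKM came next. The library ranges of these 6 overlap each other and, except for Riox1, those of Alkbh5 and Bbox1, so the order below Phyh did not hold in every library. In wild type replicate 2 Alkbh2, Ogfod3 and Plod3 (13.2, 12.9 and 11.6 FPKM) exceeded Alkbh5 and Bbox1 (10.6 and 10.9 FPKM), and in knockout replicate 2 Kdm6b (14.2 FPKM) exceeded both (13.2 and 13.1 FPKM). By mean, Kdm5c at 5.91 and Phf2 at 4.58 FPKM were the next TET and KDM genes after Kdm6b. This order did not hold in wild type replicate 2. There Kdm4b (4.205 FPKM) exceeded Kdm5c (4.016 FPKM) and Kdm3a (2.014 FPKM) exceeded Phf2 (1.815 FPKM). Within the KDM6 pair, Kdm6b was higher than Kdm6a (1.16 FPKM) in every library, and within the collagen prolyl 4-hydroxylases the order P4ha1 (6.08 FPKM), P4ha2 (2.54 FPKM) and P4ha3 (0.0891 FPKM) held in every library. Tet3 (2.03 FPKM) exceeded Tet2 (0.677 FPKM) in every library, and Tet1 (0.00916 FPKM) was the lowest member.

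The genes that supply cofactors to these enzymes also had 0 members past the adjusted threshold. Among 27 genes that make or use 2-oxoglutarate, 10 were higher on average and 17 lower (median log2 fold change -0.30), and 0 had an unadjusted p under 0.05. Wild type replicate 2 was the highest library for 17 of the 27, against 31.4% of all tested genes. Over all tested genes 50.4% were positive and 8.3% had an unadjusted p under 0.05. Fh1, fumarate hydratase, which removes the competing fumarate, had 254 and 433 CPM in wild type and 156 and 206 CPM in the knockout libraries (log2 fold change -0.93, SE 0.39, edgeR adjusted p = 0.6). The alanine transaminase genes Gpt and Gpt2 went opposite ways, at -0.79 and 0.67. Of 9 tested ascorbate genes 3 were positive and 6 negative, with 0 at an unadjusted p under 0.05, and wild type replicate 2 was the highest library for 6 of the 9. The vitamin C transporters Slc23a2 and Slc23a1 had log2 fold changes of 1.11 and 0.55, and Akr1a1, a reductase of ascorbate synthesis, had -0.73. Iron delivery genes were split, 4 positive and 4 negative. Ncoa4, the ferritin-degradation receptor, had 12.5 and 4.81 against 25.5 and 15.8 CPM (log2 fold change 1.25, SE 0.54, adjusted p = 0.606), Slc11a2 had -0.56 and Glrx3 -0.58. In the carnitine list 4 of 7 were positive, led by Cpt1a with 189 and 206 against 320 and 318 CPM (log2 fold change 0.69, SE 0.31), then Shmt1 at 0.55 and Slc22a5 at 0.53.

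Genes of the opposing writers were often lowest in wild type replicate 2 as well. Of 22 histone lysine methyltransferase genes, 16 were positive (median 0.44), 3 had an unadjusted p under 0.05 and 0 passed after adjustment, and wild type replicate 2 was the lowest library for 18. Over all tested genes 50.4% were positive, 8.3% had an unadjusted p under 0.05 and 34.7% were lowest in wild type replicate 2. Kmt2d had 81.8 and 39.6 CPM in wild type and 113 and 185 CPM in the knockout libraries (log2 fold change 1.29, SE 0.45, edgeR adjusted p = 0.557), and Kmt2a and Nsd3 had 1.27 and 1.04. Of 13 writers and readers of N6-methyladenosine, 9 were positive (median 0.20) and wild type replicate 2 was lowest for 10. Zc3h13, at 28.7 and 28.9 against 40.7 and 57.8 CPM, was the only one of the 13 with an unadjusted p under 0.05, and Cbll1 and Ythdc1 had log2 fold changes of 0.63 and 0.48. Of 10 DNA methylation genes 7 were positive (median 0.11). Uhrf1, which guides DNA methylation to newly replicated DNA, had 66.1 and 58.9 against 35.5 and 28 CPM (log2 fold change -0.98, SE 0.30, unadjusted p = 0.0143, adjusted p = 0.547), and Dnmt3a and Dnmt3b had -0.68 and 0.29. The Y-linked JmjC paralogs Kdm5d and Uty, which are not among the 52, had log2 fold changes of 1.00 and 0.68, beside 1.03 for Ddx3y and 0.30 for Eif2s3y.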

How the data were processed

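RNA came from tumour tissue by column extraction and mRNA libraries, per the labels. The authors deposited whole-number counts and FPKM for each gene and library. The submitters' processing notes name HISAT2, SAMtools 1.3.1, StringTie, edgeR and the build mm10; what each did, the annotation and the strandedness are not given in the sources used here. Reads of genes that overlap on opposite strands can therefore not be told apart, and 22 members share exonic bases that way. Besides Jmjd8, Alkbh2 and Tyw5 they include Riox2 (22.4% with Crybg3), Ogfod3 (17% with Hexdc) and Plod3 (11.7% with Znhit1). The deposited FPKM is a rescaled count (within 1% for 100% of values from 10 counts up) and served only to compare levels between genes. GENCODE M21 gave symbols for 55227 of 55487 identifiers.

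Counts were filtered with filterByExpr by group, scaled by TMM and tested with edgeR 4.0.16 in R 4.3.3 (quasi-likelihood F test, two-sided, Benjamini-Hochberg over 16310 genes, threshold 0.05). Each SE is the log2 fold change divided by the root of F. Replicates are separate mice, 2 per group, so the spread behind a p-value is mostly pooled over genes. The fit was tested on simulated data, and lists were not tested as sets. Values per library are given for members with an unadjusted p under 0.05, for the smallest p and highest FPKM of each family, and for others that complete a family; of each related list up to 3 genes with the smallest p are named. Members and lists were chosen with earlier results of these data known, and transcript length and GC content (longest GENCODE M21 transcript) were looked at after the values were seen. Alternatives were DESeq2 1.42.0, its size factors, library totals, 2 other filters, limma-voom (limma 3.58.1), a replicate block, and leaving out each library, the lone sample then being taken to vary as much as the other group.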

Additional observations from a re-analysis of the deposited data

How the results depend on the processing

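With 2 libraries per group the results rest on single libraries. No member passed the adjusted threshold under any alternative except without wild type replicate 1, where 3 did (0 to 3 when each library was left out). Over all genes, DESeq2 called 63 higher and 85 lower, library totals 0 higher and 1 lower, limma-voom 0 higher and 1 lower, and leaving out each library 0 to 209 higher and 0 to 200 lower, the most without wild type replicate 1 (209 and 200) and fewer without wild type replicate 2 (29 and 39); the cause was not tested. The replicate numbers are shared between groups, and deviations of same-numbered libraries correlated at 0.12 over 2 pairs. The labels name no pairing, and this value cannot show whether same-numbered libraries share more than a number. With a replicate block 2 genes were called higher and 2 lower, and 0 members. Members at an unadjusted p under 0.05, beside the share of all genes in either direction, numbered 5 higher and 0 lower with the block (8.19%), 1 and 0 with library totals (6.77%), 1 and 2 with no filter (5.12%), 2 and 2 with DESeq2 size factors (8.35%), and 2 and 0 where genes averaged 5 CPM or more (8.64%). They numbered 0 to 13 higher and 0 to 6 lower when each library was left out, the most without wild type replicate 1 (24% of all genes; 11% without wild type replicate 2, 4.49% without knockout replicate 1 and 3.07% without knockout replicate 2). The members' median log2 fold change lay between 0.082 and 0.374 when each library was left out, with 29 to 34 members positive. In the other settings 348 of 349 member values kept their sign, the exception being Alkbh3 at 0.0023 with a mean of at least 5 CPM. When each library was left out, 21 of 50 members changed sign with some library, and their log2 fold changes ran as follows: Alkbh1 from -0.057 to 1.15, Alkbh2 from -1.06 to 0.26, Alkbh3 from -0.20 to 0.14, Asph from -0.025 to 0.52, Hspbap1 from -0.091 to 0.75, Kdm3a from -0.38 to 0.058, Kdm5a from -0.13 to 1.16, Kdm5c from -0.15 to 0.41, Kdm6a from -0.30 to 1.57, Kdm7a from -0.069 to 1.85, Kdm8 from -0.47 to 0.0086, Ogfod2 from -0.67 to 0.17, P3h2 from -0.80 to 0.40, P3h3 from -1.28 to 0.18, P4ha2 from -0.48 to 0.15, Phf2 from -0.13 to 1.32, Phf8 from -0.35 to 0.92, Plod1 from -0.90 to 0.083, Plod3 from -0.53 to 0.40, Tmlhe from -1.08 to 0.83 and Tyw5 from -0.034 to 0.21. Others kept their sign but moved by over 1.5 times, among them Alkbh4 from 0.011 to 0.84, Alkbh5 from 0.019 to 0.55, Alkbh7 from -0.90 to -0.26, Fto from 0.0006 to 0.44, Bbox1 from 0.059 to 0.30, Jmjd6 from 0.17 to 0.41, Jmjd8 from -0.53 to -0.043, Kdm2b from -0.55 to -0.094, Kdm4a from 0.14 to 0.57, Kdm4c from 0.41 to 0.88, Kdm5b from 0.12 to 0.49, Plod2 from 0.27 to 0.71, Riox1 from 0.0012 to 0.13 and Riox2 from -0.38 to -0.046. Tet1 and P4ha3 were too low to test at this depth.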
